A study of Homo sapiens with 4 samples.

Results

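Interferon-stimulated genes (ISGs) are the genes that cells switch on when interferon signals infection or damage, and 38 of them were followed here in TU-177 cells, a line of laryngeal squamous cell carcinoma (LSCC), after knockdown of SKA3, a subunit of the complex that ties kinetochores to spindle microtubules. The members were a list of genes given by symbol. The expression table held a row for 37 of them among 28729 genes. XAF1 is not analysed here. RNA sequencing was performed on 4 libraries. The 2 NC libraries came from cells transduced with a lentivirus carrying a negative control shRNA, and the 2 SKA3-KD libraries came from cells transduced with a lentivirus carrying an shRNA to SKA3. All 4 were puromycin-selected cultures in DMEM with fetal bovine serum, and no interferon or virus other than the lentiviral vector is named in the labels. The labels do not give the age or passage of the cultures, or how many shRNAs or clones stand behind SKA3-KD, and they do not say whether the replicates were separate cultures. The p-values therefore measure the spread between these libraries, which may be technical.

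Interferons are secreted proteins that bind receptors on the cell surface and activate the kinases JAK1, JAK2 and TYK2. Type I and type III interferons lead to a complex with STAT2 and IRF9 that binds the interferon-stimulated response element (ISRE). Interferon gamma leads to binding at the gamma-activated site (GAS). The induced proteins sense viral RNA, block virus entry or release, modify other proteins with ISG15, or amplify and then dampen the signal, and many epithelial and tumor cells keep some of these genes active without added interferon.

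The promoters of the 6 members that passed the test of change described further on are shown first, because the ISRE and the GAS are the sequences through which interferon signals are known to reach such genes. Each is the RefSeq window (GRCh38.p14) of 300 bases, with 250 bases before and 50 bases after the annotated start, written 5′ to 3′ on the strand of the gene. Capitals mark matches to the core letters of an ISRE, a GAAA followed by any 2 bases and another GAAA, or to those of a GAS, TTCNNNGAA, both searched on either strand.
IFI6 (chr1:27672143-27672442, minus strand): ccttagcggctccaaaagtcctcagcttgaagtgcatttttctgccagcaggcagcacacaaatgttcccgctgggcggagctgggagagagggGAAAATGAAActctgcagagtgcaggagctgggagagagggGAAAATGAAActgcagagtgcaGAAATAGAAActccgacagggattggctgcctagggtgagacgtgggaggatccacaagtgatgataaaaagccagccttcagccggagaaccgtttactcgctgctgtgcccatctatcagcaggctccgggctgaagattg
IFI35 (chr17:43006534-43006833, plus strand): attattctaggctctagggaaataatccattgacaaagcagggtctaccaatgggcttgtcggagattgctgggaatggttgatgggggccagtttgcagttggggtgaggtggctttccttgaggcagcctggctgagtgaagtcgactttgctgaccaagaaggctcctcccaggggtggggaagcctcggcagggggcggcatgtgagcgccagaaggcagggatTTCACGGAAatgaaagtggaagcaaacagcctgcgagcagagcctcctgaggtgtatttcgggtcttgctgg
SAMD9 (chr7:93117930-93118229, minus strand): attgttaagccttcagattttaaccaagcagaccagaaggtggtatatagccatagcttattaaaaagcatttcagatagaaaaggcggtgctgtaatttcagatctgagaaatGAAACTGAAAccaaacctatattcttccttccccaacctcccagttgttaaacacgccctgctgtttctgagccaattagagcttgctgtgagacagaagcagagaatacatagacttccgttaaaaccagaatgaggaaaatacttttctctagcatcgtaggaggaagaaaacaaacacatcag
PARP14 (chr3:122680589-122680888, plus strand): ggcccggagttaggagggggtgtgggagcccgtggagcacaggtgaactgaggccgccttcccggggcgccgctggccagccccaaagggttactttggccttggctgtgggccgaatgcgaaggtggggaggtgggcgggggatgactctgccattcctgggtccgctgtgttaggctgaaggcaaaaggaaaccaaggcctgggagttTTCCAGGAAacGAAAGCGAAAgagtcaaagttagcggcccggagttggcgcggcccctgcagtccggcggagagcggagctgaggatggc
OAS3 (chr12:112938224-112938523, plus strand): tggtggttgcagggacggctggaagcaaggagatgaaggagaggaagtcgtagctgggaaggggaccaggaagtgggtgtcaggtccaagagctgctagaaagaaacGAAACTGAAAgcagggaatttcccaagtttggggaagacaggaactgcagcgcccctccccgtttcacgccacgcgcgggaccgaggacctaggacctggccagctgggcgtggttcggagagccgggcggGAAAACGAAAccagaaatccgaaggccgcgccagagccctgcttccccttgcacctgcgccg
OAS1 (chr12:112906712-112907011, plus strand): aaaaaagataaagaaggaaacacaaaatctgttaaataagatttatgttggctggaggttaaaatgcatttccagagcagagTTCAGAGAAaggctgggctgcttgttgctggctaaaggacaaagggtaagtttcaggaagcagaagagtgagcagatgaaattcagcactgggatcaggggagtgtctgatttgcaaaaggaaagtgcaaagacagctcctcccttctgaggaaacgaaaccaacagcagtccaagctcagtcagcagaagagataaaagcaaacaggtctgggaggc

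IFI6 held 3 ISRE cores, the first base of each at -156, -115 and -93 from the start. OAS3 held ISRE cores at -143 and -12. SAMD9 held a single ISRE core at -136. PARP14 held an ISRE core at -29 next to a GAS at -40. IFI35 and OAS1 held a GAS, at -22 and -168, and no ISRE core of the form searched. Both of these windows hold GAAA units with a single base between them, a form that was not searched, so an ISRE is not excluded there. The ISRE core as searched and the GAS thus each occurred both in a gene that rose and in a gene that fell in SKA3-KD.

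For comparison, ISRE cores are shown with 10 bases on either side for members whose expression was among the highest without passing the test (ISG15, BST2 and IFITM3), and for members at low levels or at 0 (IFIT1, MX1 and RSAD2). The 10 letters in capitals are the core on the strand of the gene (GAAA repeated) or its reverse complement (TTTC repeated).
ISG15 (chr1:1013380-1013409, plus strand): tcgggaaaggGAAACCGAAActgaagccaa
BST2 (chr19:17405741-17405770, minus strand): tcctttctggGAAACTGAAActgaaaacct
IFITM3 (chr11:320876-320905, minus strand): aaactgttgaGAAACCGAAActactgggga
IFIT1 (chr10:89392497-89392526, plus strand): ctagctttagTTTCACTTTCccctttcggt
MX1 (chr21:41420559-41420588, plus strand): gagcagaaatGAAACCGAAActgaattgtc
RSAD2 (chr2:6877622-6877651, plus strand): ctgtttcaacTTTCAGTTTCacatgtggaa

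Of the 37 members, 29 had a promoter window. An ISRE core lay in 22 of these 29 genes (75.9%), against 4.38% of the 27305 genes with a window. A GAS lay in 10 of the 29 (34.5%), against 9.38% of all genes. Both motifs lay in 6 members, and neither lay in 3, which were STAT2, HERC6 and CMPK2. GAAA units with a single base between them are present in windows of CMPK2, OAS1 and IFI35. They are also present in windows of RSAD2, MX1, OAS3 and PARP14, genes that hold a core as searched too. These units were not counted. This holds for members and for all genes, so these shares cover only the form with 2 bases between. Of the 12 GAS matches in member windows, 5 overlapped an ISRE core match, and IFI27 gave 2 of these 5, as the same site in a pair of windows. By outcome, an ISRE core lay in 1 of the 2 members that rose, 3 of the 4 that fell, 9 of the 11 tested without passing, and 9 of the 12 below the filter on expression. A match describes the letters in this window and does not show that a factor binds there.

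**Figure D1:**
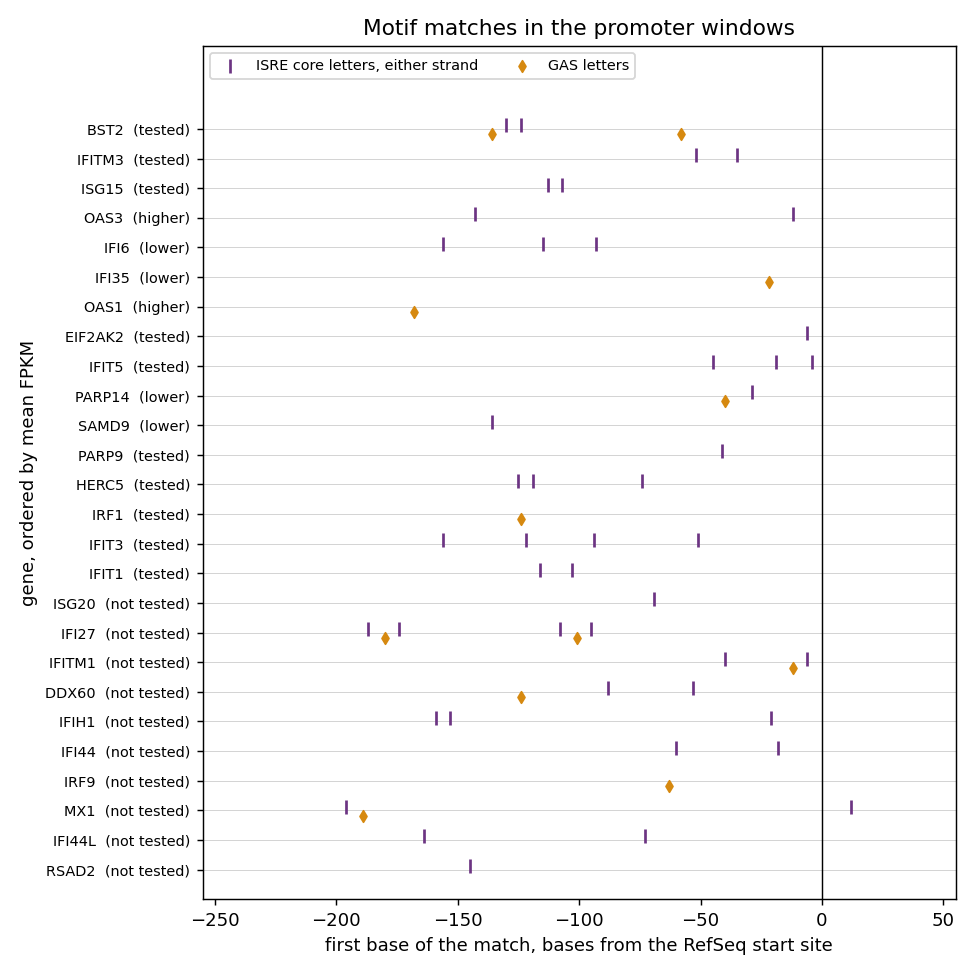
Positions of ISRE core and GAS matches in the promoter windows of the members, in bases from the annotated start (0), 1 row per gene. All matches but 1, the MX1 match at 12, begin upstream of the start, and ISRE cores are seen in called genes, in genes that did not pass the test and in genes near 0.

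The first question was which of these genes the cells expressed at all. Expression is given as FPKM, which divides the fragments of a gene by its length and by the depth of the library, so that levels can be compared between genes of different length. A value above 0 in all 4 libraries was found for 29 of the 37 members, and in at least 1 library for 36. RSAD2 was listed at 0 in every library. A mean of at least 1 FPKM, the minimum for the test, was reached by 20 members, each of them with a mean above 1 in both groups. The levels were uneven within families, so that 1 or more members of a family were abundant while a close relative was near 0.

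BST2, which tethers budding virus particles to the cell surface, was the most abundant member, with 211 and 216 FPKM in NC and 225 and 208 FPKM in SKA3-KD. IFITM3, which blocks the fusion of viruses in endosomes, followed with 131 and 133 FPKM in NC and 128 and 125 FPKM in SKA3-KD. IFITM2, its close relative, had 67.5 and 71.9 FPKM in NC and 68.0 and 63.5 FPKM in SKA3-KD. By contrast IFITM1, the third of these neighbours on chromosome 11, had 0.0774 and 0.514 FPKM in NC and 0.637 and 0.236 FPKM in SKA3-KD, which is 1 to 7 reads. The IFITM genes are near-identical in sequence and the annotated span of IFITM2 overlaps that of IFITM1 by 1767 bases, so reads can be split between them in ways that the deposited values do not show. The other levels above 10 FPKM in NC were those of ISG15, IFI6, OAS3 and IFI35.

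**Figure D2:**
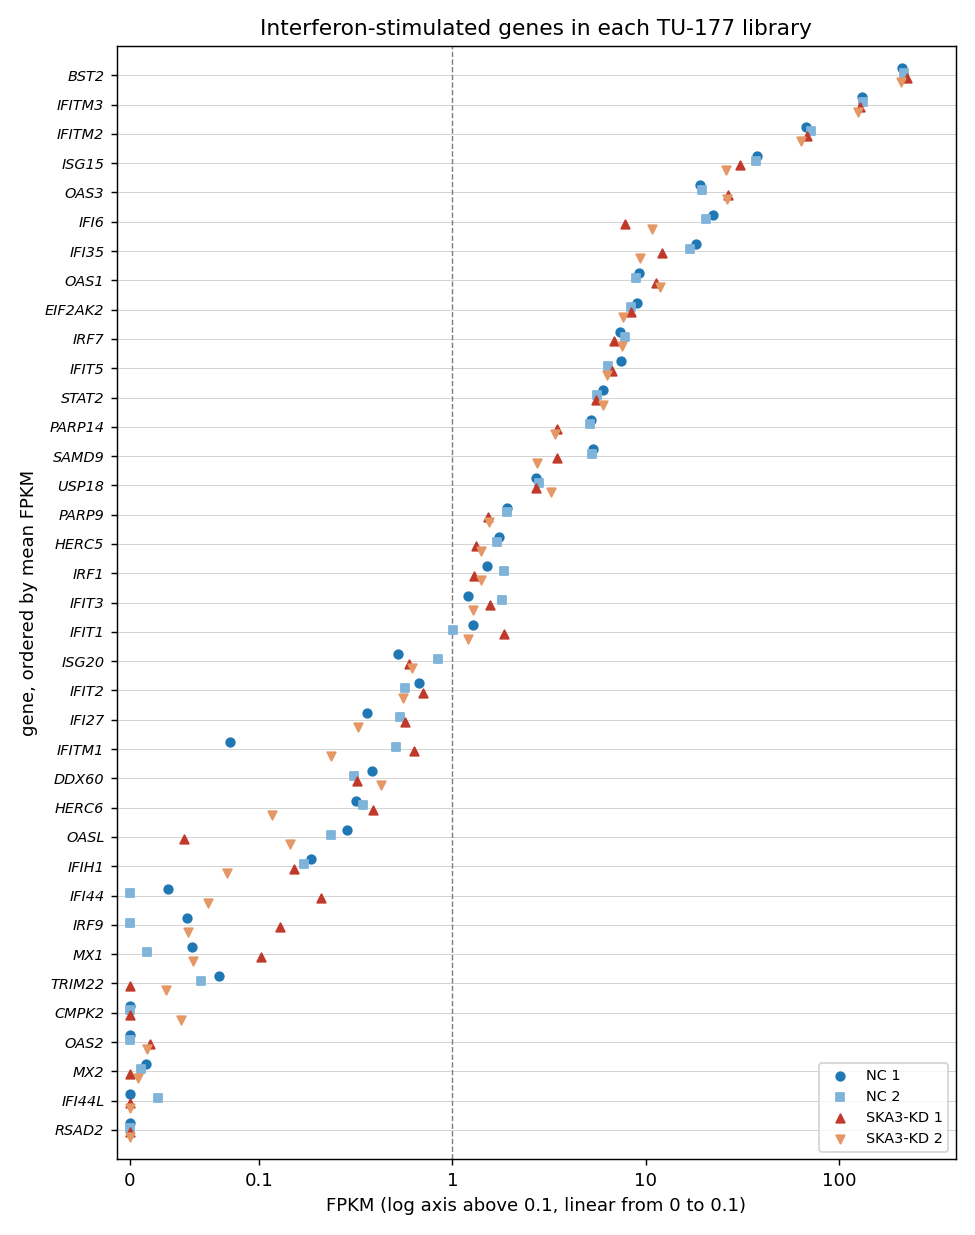
FPKM of the 37 members in each library, on an axis that is linear from 0 to 0.1 and logarithmic above it, ordered by mean level, with 1 point per library and a dashed line at 1 FPKM. BST2 and IFITM3 lie at 125 FPKM or above in every library, the 20 genes tested lie to the right of the line, and RSAD2 sits at 0 in all 4 libraries.

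The number of reads behind each value could be worked back from the table, since the FPKM of a gene moves in steps of a single read. The library sizes implied by these steps were 9015056 (NC 2) to 11966130 reads (NC 1). A single read on a transcript of 1 kb thus gave from 0.0836 FPKM (NC 1) to 0.1109 FPKM (NC 2). In every library the reads recovered over genes summed to more than the implied size (9173654 in NC 2 and 12296472 in NC 1). The reason was not tested, and the recovered reads are to be read with this limit. The NC libraries differed from each other by more than sampling noise (chi-square of 3.73 per degree of freedom over genes), as did the SKA3-KD libraries (3.7), so none was a copy of another. SKA3 itself had 9.40 and 9.64 FPKM in NC and 3.77 and 4.12 FPKM in SKA3-KD, a log2 fold change of -1.09 ± 0.07 (SE, adjusted p = 0.00806, limma), in the direction of the labels. Of the marker genes of squamous epithelium, SFN was at 133 to 155 FPKM and EPCAM at 2.73 to 2.95 FPKM. By contrast, the keratins KRT5, KRT14 and KRT6A were at or near 0 (at most 0.103 FPKM), which goes against the usual profile of a squamous line. TP63 (0.348 to 0.58 FPKM) and CDH1 (0.149 to 0.447 FPKM) of the same list were also below the minimum for the test. The immune markers LYZ and PTPRC were at 0 in 4 and 3 of the libraries.

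The second question was which members differed between NC and SKA3-KD. Values were compared as log2(FPKM + 1) with limma across the 12645 genes with a mean of at least 1 FPKM, with Benjamini-Hochberg adjustment over all of them. OAS3 and OAS1 rose, IFI6, IFI35, SAMD9 and PARP14 fell, and the other 14 members tested did not pass. The 6 members called are 30.0% of the 20 tested, where 12.3% of all genes tested were called (6.16% higher and 6.11% lower). The median log2 fold change was -0.08 over the 20 members and 0.01 over all genes tested. It was -0.05 for SKA3-KD 1 and -0.13 for SKA3-KD 2 against the NC mean, and -0.02 for NC 2 against NC 1. By sign alone, 15 members were lower and 5 were higher in SKA3-KD. This count takes in members with very small changes, such as IFIT3 (-0.04) and BST2 (0.02). The same count over all genes was not made. The groups did not overlap for 12 of the 20 members, 10 of them lower and 2 higher, but among all genes tested this held for 61.6% (29.2% lower and 32.3% higher).

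These calls rest on all 4 libraries. Without NC 1 or without NC 2, limma called no gene of the whole table, and so 0 members. Without SKA3-KD 1 it also called 0 members, and without SKA3-KD 2 it called IFI6 alone. In each of these 4 fits, 2 members were higher and 5 lower at an unadjusted p under 0.05, where 22.4% to 26.5% of all genes tested were at that level. None of the 6 called members turned in direction. With 2 libraries a group, the smallest p of an exact permutation test is 0.333. On the recovered reads, limma voom called the same 6 members in the same directions and ISG15 as lower in addition, against 25.7% of all genes (12.6% higher and 13.1% lower). With all 4 libraries, an unadjusted p under 0.05 by limma was reached by 7 of the 20 members and by 31.3% of all genes tested, so that the members were near the background at this level. Of the 20 members, 13 passed neither test.

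**Figure D3:**
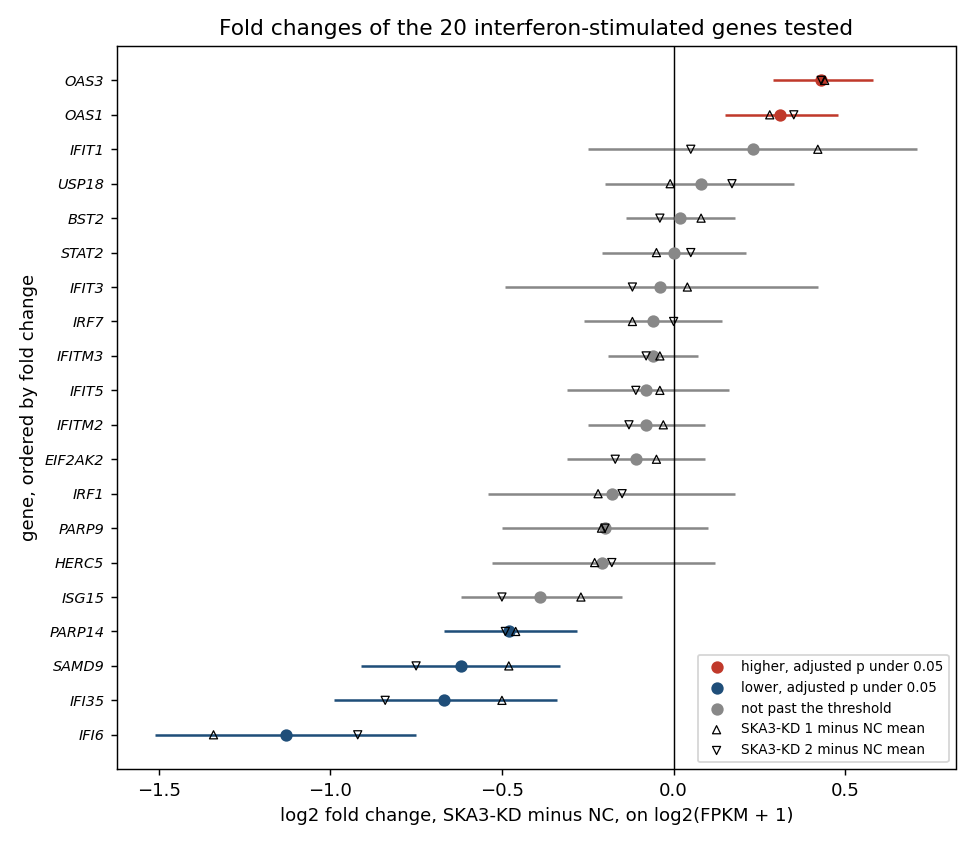
Log2 fold change of the 20 tested members in SKA3-KD relative to NC on the log2(FPKM + 1) scale, by limma, with 95% confidence intervals as bars and each SKA3-KD library against the NC mean as triangles. IFI6, IFI35, SAMD9 and PARP14 lie below 0 and OAS3 and OAS1 above 0, while the intervals of most others include 0.

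The oligoadenylate synthetases, which sense double-stranded RNA and make the short oligoadenylates that switch on RNase L, held both members that rose. OAS3 had 19.1 and 19.6 FPKM in NC and 26.6 and 26.3 FPKM in SKA3-KD. Both SKA3-KD libraries lay above both NC libraries, and the mean went from 19.4 ± 0.329 to 26.5 ± 0.154 FPKM (SD, n = 2 each), a ratio of 1.37. Its log2 fold change was 0.43 ± 0.06 (SE, adjusted p = 0.019, limma). This rests on 1457 to 2564 reads per library, and with 1 library left out the adjusted p was 0.0698 to 0.101 (limma).

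OAS1, which lies 5129 bases upstream of OAS3 on chromosome 12, had 9.21 and 8.96 FPKM in NC and 11.3 and 11.8 FPKM in SKA3-KD. The groups did not overlap, with means of 9.09 ± 0.175 and 11.6 ± 0.379 FPKM (SD, n = 2 each) and a ratio of 1.27. Its log2 fold change was 0.31 ± 0.07 (SE, adjusted p = 0.0433, limma), and with 1 library left out the adjusted p was 0.129 to 0.193. OAS2, the third gene of this cluster, had 0 reads in either NC library and 1 read in each SKA3-KD library, where a count of 0 still allows 3 reads (0.0400 FPKM in NC 1 and 0.0531 FPKM in NC 2). OASL, the relative without synthetase activity, was covered by 8 and 5 NC reads and by 1 and 4 SKA3-KD reads. The OAS family was thus split by level, with 2 members of at least 316 reads per library that rose and 2 members of at most 8 reads.

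The other RNA sensors did not pass the test. EIF2AK2 encodes PKR, the kinase that stops translation when it binds double-stranded RNA, and it had 9.02 and 8.43 FPKM in NC and 8.37 and 7.66 FPKM in SKA3-KD. The groups did not overlap, but the log2 fold change was -0.11 ± 0.08 (SE, adjusted p = 0.391, limma), with a 95% interval of -0.31 to 0.09. IFIH1, which encodes the cytoplasmic RNA sensor MDA5, had 10 and 7 NC reads against 7 and 4 SKA3-KD reads. The helicase gene DDX60 had 31 and 19 NC reads against 22 and 34 SKA3-KD reads.

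Among the genes named for interferon induction, IFI6 had the largest change among the 20 members tested. IFI6 encodes a small membrane protein known for protecting cells from apoptosis. It had 22.3 and 20.4 FPKM in NC and 7.84 and 10.8 FPKM in SKA3-KD. Both SKA3-KD libraries were far below both NC libraries, and the mean went from 21.4 ± 1.36 to 9.31 ± 2.08 FPKM (SD, n = 2 each), a ratio of 0.44. The log2 fold change was -1.13 ± 0.15 (SE, adjusted p = 0.0187, limma), with -1.34 for SKA3-KD 1 and -0.92 for SKA3-KD 2. IFI6 is short, so these values rest on 231 and 159 NC reads and on 69 and 110 SKA3-KD reads. With 1 library left out, the adjusted p was 0.0313 to 0.0925 (limma).

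IFI35, a leucine zipper protein that pairs with NMI, had 18.2 and 16.9 FPKM in NC and 12.2 and 9.37 FPKM in SKA3-KD. The means were 17.6 ± 0.913 and 10.8 ± 1.97 FPKM (SD, n = 2 each), a ratio of 0.61. The log2 fold change was -0.67 ± 0.13 (SE, adjusted p = 0.0364, limma; 0.0543 to 0.141 with 1 library left out). Its relatives by name were near 0. IFI27 had 9 and 10 NC reads against 12 and 8 SKA3-KD reads. IFI44 had 1 and 0 NC reads against 6 and 2 SKA3-KD reads, and IFI44L had 2 reads in NC 2 and 0 elsewhere, counts too low for the test. The fall was therefore measured in the 2 IFI genes of the list that the cells expressed above 1 FPKM.

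SAMD9, a large cytoplasmic protein that restricts poxviruses and growth, had 5.33 and 5.26 FPKM in NC and 3.50 and 2.75 FPKM in SKA3-KD. The ratio of the means was 0.59 (5.30 ± 0.0484 against 3.12 ± 0.531 FPKM, SD, n = 2 each). The log2 fold change was -0.62 ± 0.11 (SE, adjusted p = 0.0342, limma; 0.0641 to 0.134 with 1 library left out). SAMD9 was the 1 effector of its group with a level above the filter. ISG20, an RNA exonuclease, had 46 and 56 NC reads against 45 and 54 SKA3-KD reads. MX1 and MX2 encode GTPases that trap viral nucleoproteins and capsids. MX1 was covered by 5 and 1 NC reads and by 9 and 5 SKA3-KD reads, and MX2 by at most 2 reads in any library. TRIM22 had 5 and 3 NC reads against 0 and 2 SKA3-KD reads. CMPK2, a nucleotide kinase, was listed at 0 in 3 libraries with 2 reads in SKA3-KD 2. RSAD2, its neighbour that encodes viperin, was at 0 in all 4, which allows up to 0.0688 FPKM in NC 2, the shallowest library.

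PARP14 and PARP9 encode ADP-ribosyltransferases with macrodomains, of which PARP9 works in a pair with the ubiquitin ligase DTX3L. PARP14 had 5.23 and 5.16 FPKM in NC and 3.49 and 3.40 FPKM in SKA3-KD. The libraries of each group were close together, with means of 5.19 ± 0.0521 and 3.45 ± 0.0641 FPKM (SD, n = 2 each) and a ratio of 0.66. The log2 fold change was -0.48 ± 0.08 (SE, adjusted p = 0.0257, limma; 0.0973 to 0.117 with 1 library left out). PARP9 had 1.93 and 1.91 FPKM in NC and 1.53 and 1.55 FPKM in SKA3-KD, a ratio of 0.80. Its groups did not overlap either, but it passed neither test, with a log2 fold change of -0.20 ± 0.12 (SE, adjusted p = 0.307, limma) and of -0.33 on the recovered reads (adjusted p = 0.0763, limma voom). The 5′ ends of PARP9 and DTX3L overlap by 340 bases on opposite strands, and strand use is not given in the sources used here, so reads in that stretch cannot be told apart.

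The ISG15 system attaches the ubiquitin-like protein ISG15 to other proteins. ISG15 itself had 37.6 and 37.1 FPKM in NC and 30.8 and 26.1 FPKM in SKA3-KD. Both SKA3-KD libraries were below both NC libraries, with means of 37.4 ± 0.34 and 28.5 ± 3.32 FPKM (SD, n = 2 each) and a ratio of 0.76. The log2 fold change of -0.39 ± 0.09 (SE) missed the threshold by limma (adjusted p = 0.0562) and passed it on the recovered reads, at -0.42 (adjusted p = 0.0133, limma voom). HERC5, the ligase that joins ISG15 to its targets, had 1.75 and 1.70 FPKM in NC and 1.32 and 1.41 FPKM in SKA3-KD. Its ratio was 0.79, and it passed neither test (adjusted p = 0.329, limma, and 0.188, limma voom). USP18, which removes ISG15 and damps the type I receptor, had 2.71 and 2.81 FPKM in NC and 2.72 and 3.23 FPKM in SKA3-KD (ratio 1.08, adjusted p = 0.668, limma). HERC6, a relative of HERC5, had 22 and 18 NC reads against 23 and 8 SKA3-KD reads. Within this group, then, the modifier and its ligase were lower in both SKA3-KD libraries without passing limma, and the protease was not. Groups that did not overlap in that direction were found for 29.2% of all genes tested.

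The abundant membrane proteins differed little. For BST2 the log2 fold change was 0.02 ± 0.06 (SE, adjusted p = 0.86, limma), with a 95% interval of -0.14 to 0.18. For IFITM3 it was -0.06 ± 0.05 (SE, adjusted p = 0.488), with an interval of -0.19 to 0.07. For IFITM2 it was -0.08 ± 0.07 (SE, adjusted p = 0.448), with an interval of -0.25 to 0.09. These genes hold 847 to 2822 reads per library, so their intervals are among the narrowest of the list. Summed over the whole list, expression was 569 and 577 FPKM in NC and 559 and 527 FPKM in SKA3-KD, a sum that BST2 and the IFITM genes dominate.

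The IFIT genes, whose proteins bind viral RNA ends, lie side by side on chromosome 10 and resemble each other in sequence. IFIT5 had 7.43 and 6.38 FPKM in NC and 6.68 and 6.29 FPKM in SKA3-KD. IFIT3 had 1.20 and 1.81 FPKM in NC and 1.56 and 1.28 FPKM in SKA3-KD. IFIT1 had 1.28 and 1.01 FPKM in NC and 1.85 and 1.21 FPKM in SKA3-KD. In all 3 the groups overlapped, and IFIT1 had the widest interval of the tested members, from -0.25 to 0.71 around 0.23 on the log2 scale (adjusted p = 0.451, limma). IFIT2 was below the filter, with 28 and 18 NC reads against 25 and 23 SKA3-KD reads.

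The transcription factors of the response were measured at low to moderate levels. IRF7, which amplifies type I interferon production, had 7.35 and 7.81 FPKM in NC and 6.88 and 7.55 FPKM in SKA3-KD, with a log2 fold change of -0.06 ± 0.08 (SE, adjusted p = 0.632, limma). STAT2, the transactivating subunit of the complex at the ISRE, had 6.05 and 5.59 FPKM in NC and 5.56 and 6.05 FPKM in SKA3-KD, a ratio of 1.0 with an interval of -0.21 to 0.21 on the log2 scale. IRF1 had 1.51 and 1.85 FPKM in NC and 1.3 and 1.41 FPKM in SKA3-KD (ratio 0.81, adjusted p = 0.428, limma). None of the 3 passed the test. IRF9, the DNA-binding partner of STAT2, had 2 and 0 NC reads against 5 and 2 SKA3-KD reads, near the limit of detection in all libraries.

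Members under the filter on FPKM were also examined on their recovered reads, in a fit added after the data had been seen, for which 5 reads on average were enough. This fit covered 27 members, of which 7 were below the FPKM filter, and none of those 7 passed, where 22.4% of all genes in that fit did (10.9% higher and 11.5% lower). The smallest adjusted p among them was 0.272 (limma voom), for MX1, whose log2 fold change of 1.14 had an interval of -0.32 to 2.60. An unadjusted p under 0.05 was reached by 0 of the 7. At 1 to 9 reads per library, the interval for MX1 thus spanned several fold.

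The genes upstream of the list were read from separate lists of ligands, receptors and sensors. Of 21 interferon ligand genes, 4 had a row and none was tested: IFNE had 4 reads in each NC library and 2 and 3 in SKA3-KD, and IFNK, IFNA1 and IFNA21 had at most 1 read in any library. Of 11 receptor and signalling genes, 9 were tested, and 1 rose and 2 fell by limma, where 12.3% of all genes were called. By limma voom 3 were higher and 2 lower past the threshold, where 25.7% of all genes were called. IFNAR1, a chain of the type I receptor, had 9.85 and 10.0 FPKM in NC and 13.5 and 14.3 FPKM in SKA3-KD, and rose by a log2 fold change of 0.45 ± 0.07 (SE, adjusted p = 0.0224, limma). IFNGR1, the ligand-binding chain of the gamma receptor, had 5.92 and 6.62 FPKM in NC and 2.97 and 2.53 FPKM in SKA3-KD, a log2 fold change of -0.96 ± 0.10 (SE, adjusted p = 0.0129, limma). SOCS3, an inhibitor of JAK signalling, had 19.8 and 23.2 FPKM in NC and 14.5 and 14.6 FPKM in SKA3-KD (log2 fold change -0.53, adjusted p = 0.0293, limma). A chain of the type I receptor and a chain of the gamma receptor thus changed, in opposite directions.

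IFNAR2, the other type I chain, had 3.89 and 3.17 FPKM in NC and 3.77 and 3.64 FPKM in SKA3-KD (adjusted p = 0.759, limma). IFNGR2, the other gamma chain, had 8.75 and 8.62 FPKM in NC and 9.23 and 8.85 FPKM in SKA3-KD (adjusted p = 0.638, limma). The kinases JAK1 and TYK2 had log2 fold changes of 0.13 and 0.07 (adjusted p = 0.231 and 0.666, limma). JAK2 had 1.14 and 0.877 FPKM in NC and 1.85 and 1.84 FPKM in SKA3-KD, a log2 fold change of 0.50 ± 0.15 (SE) that missed the threshold by limma (adjusted p = 0.0876) and one of 0.83 on the reads that passed it (adjusted p = 0.00263, limma voom). IL10RB, a chain of the type III receptor, likewise missed it by limma (0.37, adjusted p = 0.0537) and passed it on the reads (0.40, adjusted p = 0.019, limma voom). IFNLR1, the other type III chain, was below the FPKM filter. It had 1.12 and 0.991 FPKM in NC and 0.679 and 0.741 FPKM in SKA3-KD. In the added fit on reads it did not pass (-0.59, adjusted p = 0.0937, limma voom). Of 13 nucleic acid sensing genes, 8 were tested. By limma voom 0 were higher and 2 lower past the threshold, where 25.7% of all genes were called. TBK1 passed by limma voom alone (-0.29, adjusted p = 0.0238). By limma 1 fell, where 12.3% of all genes were called. That gene was TRIM25, a ubiquitin ligase known for its part in RIG-I signalling, with 13.3 and 14.1 FPKM in NC and 10.8 and 10.5 FPKM in SKA3-KD (log2 fold change -0.34, adjusted p = 0.0382, limma).

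A further list of 31 interferon-induced genes outside the members had 18 tested. By limma 0 rose and 3 fell (16.7%, where 12.3% of all genes were called). By limma voom 1 was higher and 5 were lower past the threshold, where 12.6% of all genes were higher and 13.1% lower. Those past limma voom alone were HELZ2 (0.63, adjusted p = 0.000275), IFI16 (-1.56, adjusted p = 0.000239) and PLSCR1 (-0.37, adjusted p = 0.0226). LGALS3BP, a secreted glycoprotein, had 2.98 and 3.40 FPKM in NC and 0.987 and 1.25 FPKM in SKA3-KD (log2 fold change -0.99, adjusted p = 0.0193, limma). DTX3L, the partner of PARP9, had 5.55 and 5.52 FPKM in NC and 3.57 and 3.71 FPKM in SKA3-KD (log2 fold change -0.49, adjusted p = 0.0237, limma). PARP12 had 6.20 and 6.14 FPKM in NC and 4.58 and 4.53 FPKM in SKA3-KD (log2 fold change -0.37, adjusted p = 0.0366, limma). Over all these lists, 35 genes were tested, 1 rose and 6 fell (7 of 35, where 12.3% of all genes were called), and the median log2 fold change was -0.02. With 1 library left out, none of these 7 genes passed.

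**Figure D4:**
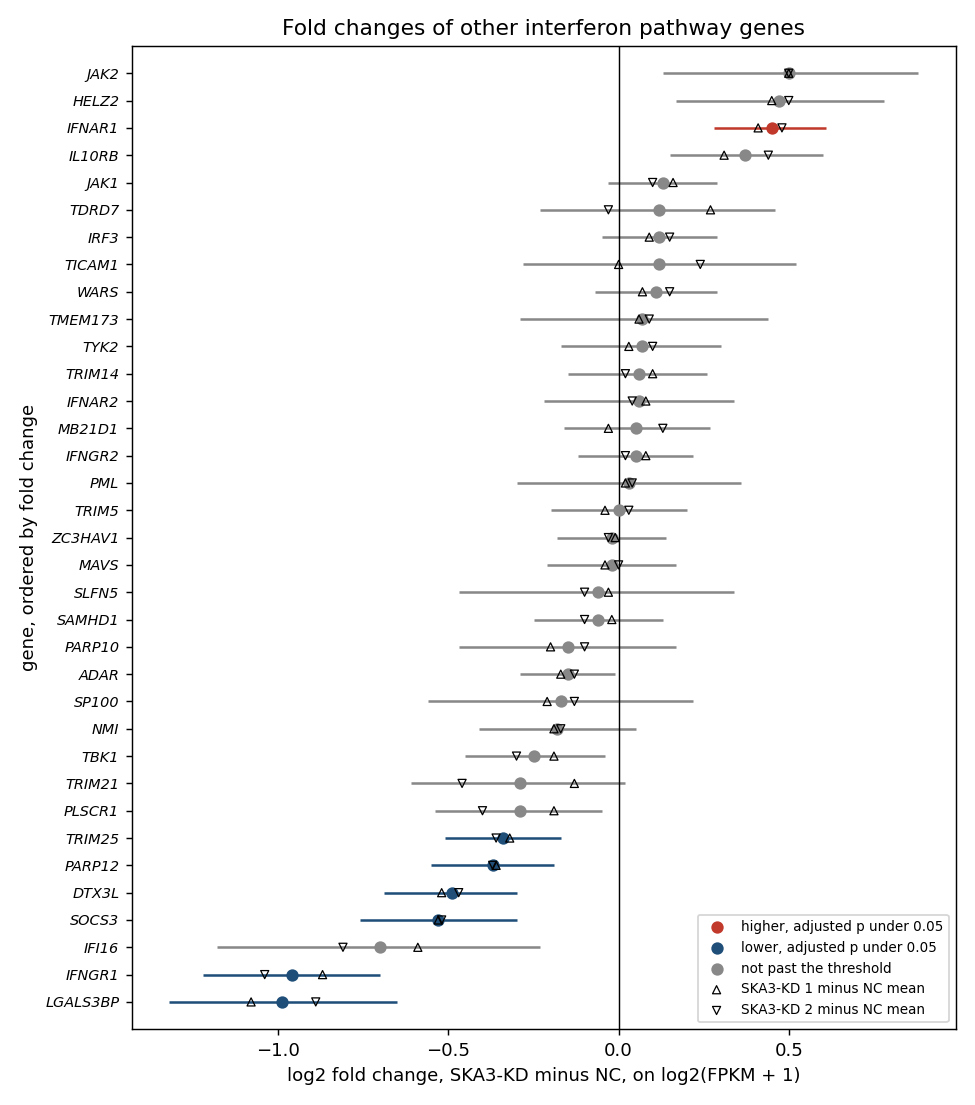
Log2 fold change in SKA3-KD relative to NC (log2(FPKM + 1) scale, limma) of the 35 tested genes of the receptor and signalling, nucleic acid sensing and other interferon-induced lists, with 95% confidence intervals as bars and each SKA3-KD library against the NC mean as triangles. IFNAR1 passed the threshold above 0, and LGALS3BP, IFNGR1, SOCS3, DTX3L, PARP12 and TRIM25 passed it below 0.

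Among markers of another cell type, a single gene passed the test by limma. Of 6 fibroblast markers, 3 were tested and 1 fell, DCN, from 8.40 and 8.36 FPKM in NC to 2.48 and 2.35 FPKM in SKA3-KD. PDGFRB went the other way, with 2.88 and 2.46 FPKM in NC and 3.19 and 4.13 FPKM in SKA3-KD (adjusted p = 0.165, limma, and 0.0245, limma voom). COL1A1 had 3.22 and 3.99 FPKM in NC and 2.71 and 2.66 FPKM in SKA3-KD (adjusted p = 0.14, limma, and 0.0118, limma voom). By limma voom, then, 1 of the 3 was higher and 2 were lower, where 25.7% of all genes were called. COL3A1, below the FPKM filter, was lower in the added fit on reads (-0.94, adjusted p = 0.0122, limma voom). The sum of the 6 was 15.4 and 15.8 FPKM in NC and 8.86 and 9.56 FPKM in SKA3-KD, a difference that is mostly DCN, while COL1A2 was at 0 in 3 libraries. The immune markers summed to 0.798 to 1.38 FPKM and the endothelial markers to 0.0633 to 0.0968 FPKM. The part of these differences in the values of the members was not tested, and in bulk RNA a smaller share of cells and less RNA per cell cannot be told apart.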

How the data were processed

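RNA sequencing was done by the study's authors on total RNA of TU-177 cells, as 2 NC and 2 SKA3-KD libraries. The authors deposited 1 table of FPKM values per gene, and the submitters' processing notes name hg19, Bowtie2 2.2.8, HISAT2, StringTie 1.3.1 and Cuffdiff 2.1.1 with no role; the strand setting is not given in the sources used here. Samples were grouped by title. Ensembl IDs were matched to symbols in GENCODE 29 (27199 of 28729 genes). Gene positions are from that release and promoters from RefSeq, both GRCh38, and do not use the build in the notes.

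From the deposited FPKM, log2(FPKM + 1) was fitted with limma 3.58.1 in R 4.3.3 (moderated variance with a trend, 2 groups, genes with a mean of at least 1 FPKM), with Benjamini-Hochberg adjustment and a threshold of 0.05. On this scale the change of a gene of low level is understated. The reads behind the FPKM were worked back to whole numbers, by exon length for 25 members and by the proportions between libraries for 11 (within 0.01 read), and tested with limma voom. Among the genes tested, 61.3% were recovered by exon length, 38.5% by proportions and 0.1% by rounding. Limits from counts cover counting error only. Every member is accounted for; full values are given for members past a test and the 10 of the highest mean, and for genes of the other lists past the threshold plus IFNAR1, IFNAR2, JAK1 and TYK2. IFNE, IFNK, IFNA1, IFNA21, JAK2, IL10RB, IFNGR2, IFNLR1, TBK1, HELZ2, IFI16, PLSCR1 and the cell type markers given were named after their values were seen. A gene of the signalling list is not reported here. The members and lists were chosen with earlier results of these data known. Alternatives changed the pseudocount, filter, scaling, variance model, test, replicate block and libraries.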

Additional observations from a re-analysis of the deposited data

How the results depend on the processing

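With all 4 libraries, the 6 called members and SKA3 kept their direction over 10 alternatives (9 for PARP14 and SAMD9, which lie below the filter of 5 FPKM). The calls depended on the filter and the variance model. With no filter on mean FPKM, limma called 0 members higher and 0 lower (48 and 81 genes in the whole table, against 779 and 772), with 26504 genes tested. Without a mean-variance trend it called 1 higher (OAS3) and 2 lower (IFI6 and PARP14), with 312 and 381 genes in the table. With a mean of at least 5 FPKM, 12 members were tested, 2 were higher and 3 lower (IFI6, IFI35 and ISG15), with 993 and 887 of 7303 genes in the table. Limma voom called 1597 genes higher and 1653 lower in the table. The replicate numbers were not shown to pair the libraries (correlation of deviations 0.097 over genes, from 2 numbers), and the replicate block gave 1 member higher (OAS3) and 5 lower (ISG15 in addition), with OAS1 at an adjusted p of 0.0504. Leaving out 1 library in turn gave 0 members higher and 0 to 1 lower, and 0 to 46 genes higher and 0 to 135 lower in the table; the lone library of a group was assumed to vary like the other group. SKA3 then ranged from -1.14 to -1.04 and missed the threshold without NC 1 (-1.11, adjusted p = 0.066) and without NC 2 (-1.07, adjusted p = 0.06, limma). The list median ranged from -0.13 to -0.05. Signs of uncalled genes turned among the fits with 1 library left out: STAT2 -0.05 to 0.05 (0.05 without NC 1 and without SKA3-KD 1), IFIT3 -0.21 to 0.14 (0.14 without NC 2, 0.04 without SKA3-KD 2), IFIT5 -0.17 to 0.02, BST2 -0.04 to 0.08, USP18 -0.01 to 0.17, IFNAR2 -0.06 to 0.17 and TYK2 -0.03 to 0.17. The causes were not tested. The planned quasi-likelihood count test was not run, because the deposited values are FPKM. With 2 libraries a group, the 95% intervals of uncalled members reach 0.13 to 0.48 on either side (log2). These intervals are not adjusted for the number of genes tested, so a call needed a larger difference than they show. ISG15, at -0.39 with an interval of -0.62 to -0.15, was not called (adjusted p = 0.0562, limma).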
